A study of Drosophila melanogaster with 5 samples.

Results

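The Rab GTPases of Drosophila melanogaster were followed in RNA from larval hemolymph, in which the Hox gene abd-A was either left to its own control or misexpressed with the Cg-Gal4 driver. Members were all genes of the count table whose FlyBase symbol is Rab and a number, with letters at most after it, or RabX and a number. There were 33 such genes among 17807 in the table. A further 3 symbols that begin in the same way, Rab3-GEF, Rab3-GAP and Rab3GAP1, name regulators and were counted with the regulators. The control group, Cg-Gal4>CS, holds 2 libraries and carries the driver without a UAS transgene, in a Canton-S background. The other group, Cg-Gal4>UAS-abd-A, holds 3 libraries from larvae that carry the same driver and UAS-abd-A, an HA-tagged line in the list of stocks. Flies were kept at 25 °C. The methods give 96 to 102 h after egg laying for larvae that were screened or stained, and no separate age for those bled for RNA. Hemolymph was collected 20 larvae at a time and pooled for RNA. Nothing states that the libraries of a group came from separate crosses or days, so the p-values below measure the spread between pools. Cg-Gal4 is active in the fat body as well as in blood cells, and the tissue was taken as whole pelleted hemolymph without a sort of cell types.

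Rab proteins are small GTPases that mark the membranes of a cell and choose which vesicles bud, move and fuse there. An activator (GEF) loads a Rab with GTP on its own membrane, GTP-bound Rab then recruits effectors such as tethers and motors, an inactivator (GAP) makes it hydrolyze GTP, and GDI draws the inactive protein back into the cytosol. Blood cells of the fly use endocytic Rabs for phagocytosis and for the recycling of receptors, and secretory Rabs to bring matrix proteins and membrane proteins to the surface. Rab3 and its relatives serve regulated release at synapses.

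The deposited values are raw read counts per gene, and they sum to between 1252969 and 2567624 in the control libraries and between 3848911 and 4959111 in the abd-A libraries, with 3 counts equal to 1.16 to 2.06 and 0.638 to 0.817 CPM. CPM scales a count to the size of its library, after correction by TMM. The controls were less alike (Spearman's rho 0.80 across genes, which are not independent replicates) than abd-A libraries were (0.96 in each pair). The driven gene itself, abd-A, had 0 and 21 counts with Cg-Gal4>CS against 620, 474 and 638 with abd-A. These totals are far below the sequencing depth stated in the methods. Genes annotated as antisense RNA had a median density of counts 5.48 to 9.39 times that of the coding genes they overlap, over 399 to 466 pairs in each library. The library kit keeps the strand, while the strand setting of the counting is not given in the sources used here. This bears on the counts of every Rab gene, with or without an overlapping gene, and the part of the setting in the Rab values was not tested. In bulk RNA, fewer cells of a type and less RNA per cell cannot be told apart.

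Of the 33 Rab genes, 26 had at least 10 counts summed over the 5 libraries and were tested. Of the other 7, Rab9D, Rab9Db, Rab9Fa, Rab9Fb, RabX2 and RabX5 had 0 counts in every library and Rab9E had 6 counts, all in control replicate 2. Calls required a change of at least 2-fold and an adjusted p under 0.05 (edgeR, over all 11624 genes tested). By this rule 7 Rab genes were upregulated with abd-A and 1 was downregulated, where 11.0% of all genes tested were upregulated and 12.7% downregulated. The upregulated genes were Rab11, Rab35 and Rab7 of the endocytic group and Rab1, Rab2, Rab6 and Rab10 of the secretory group. Rab3 was the downregulated one. The median log2 fold change of the 26 genes was 0.99, against -0.17 for all genes tested. Among genes with at least 10 counts in every library, 7 of 16 Rab genes were upregulated, against 14.3% of 6350 genes. This minimum was on raw counts, where 1 count equaled 0.388 to 0.687 CPM in the controls and 0.213 to 0.272 CPM with abd-A. It thus asked for a higher CPM in the controls. The CPM of the 2 groups did not overlap for 17 of the 26 Rab genes with abd-A higher, where 27.3% of all genes lay so, and for 3 with abd-A lower, where 29.3% did.

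**Figure D1:**
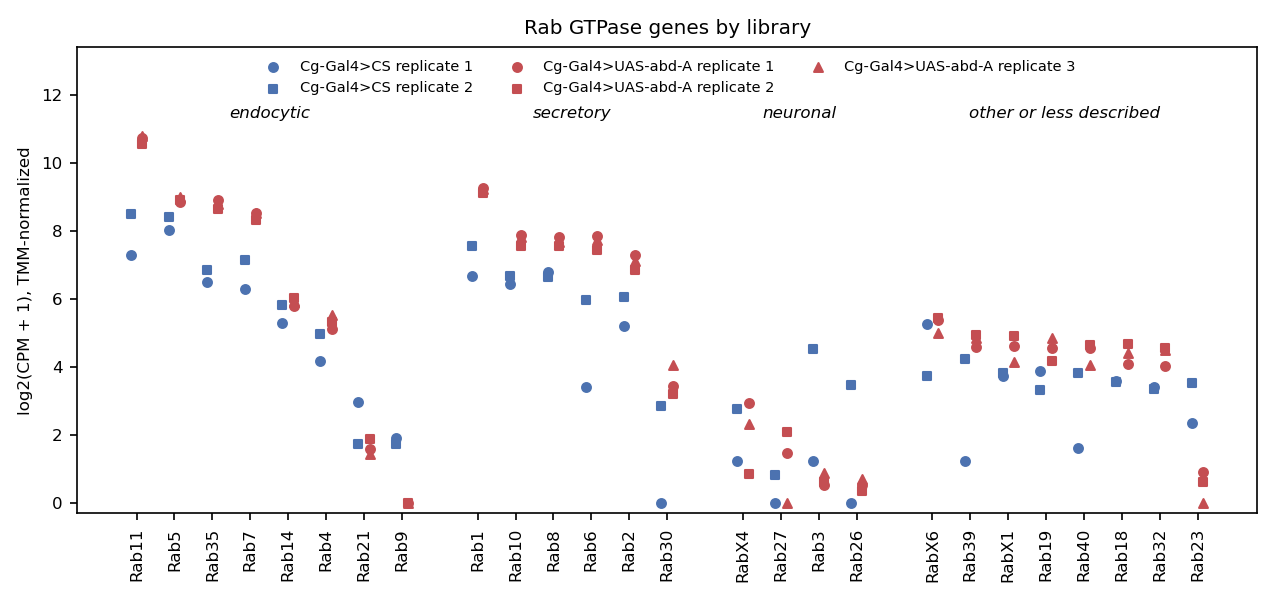
Levels of the 26 tested Rab genes in each library, as log2 of TMM-normalized CPM plus 1, grouped by use and ordered by the abd-A mean (blue, Cg-Gal4>CS; red, Cg-Gal4>UAS-abd-A; symbols, replicates). The 3 abd-A libraries lie close together for the well-counted genes and above both controls for Rab11, Rab35, Rab7 and all 6 secretory genes.

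Summed over all 33 genes, Rab expression was 1083 and 1694 CPM in control replicates 1 and 2 and 4739, 4217 and 4744 CPM in abd-A replicates 1, 2 and 3. Both controls lay below all abd-A libraries. The endocytic genes made up the greater part in every library, with 647 and 1038 CPM in the controls and 2797 to 3192 CPM with abd-A. Secretory genes summed to 341 and 519 CPM and to 1226 to 1466 CPM. The neuronal genes summed to at most 38.8 CPM in any library.

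Rab11, which directs membrane from recycling endosomes and the trans-Golgi back to the cell surface, had the largest fitted increase of the 26 genes and, with abd-A, the highest level. With the replicate block, Rab6 (2.85) and Rab27 (2.84) were above Rab11 (2.75). The value of Rab27 there had an SE of 4.09 and rests on at most 12 counts in a library. Without control replicate 2, Rab30 (8.34), Rab27 (5.61), Rab6 (4.38) and Rab39 (4.22) were above Rab11 at 3.38. The lone control of that fit had 0 counts of Rab30 and of Rab27, so their values depend on the prior count and give no rank. The counts of Rab11 were 228 and 918 with Cg-Gal4>CS and 7618, 5467 and 8291 with abd-A. The controls differ from each other by 2.27 times in CPM, and both lie far below the abd-A pools. For Rab11 (FBgn0015790, chromosome 3R of dm6, 21111408 to 21116146) the mean was 256 ± 141 CPM (SD, n = 2) without and 1652 ± 144 CPM (SD, n = 3) with abd-A. This gives a log2 fold change of 2.68 (SE 0.35, adjusted p = 0.000739), or 6.42-fold. The call held in every alternative fit, with values from 2.20 without control replicate 1 to 3.38 without control replicate 2. As a share of all Rab counts of a library, Rab11 took 14.5% (95% Wilson interval 12.8 to 16.3) and 21.0% (19.8 to 22.3) in the controls. In the abd-A libraries it took 35.9% (35.3 to 36.6), 35.3% (34.6 to 36.1) and 37.2% (36.6 to 37.8). Reads were amplified and not tagged by molecule, so these intervals hold no more than the error of counting.

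Rab35, which acts in rapid recycling from the plasma membrane and in actin-rich protrusions and phagosomes, was the second endocytic gene to rise. Its counts of 130 and 294 in the controls stood against 2139, 1469 and 2064 with abd-A, so that the groups were well apart. On the CPM scale this was 102 ± 17.5 (SD, n = 2) and 439 ± 38.9 (SD, n = 3). The log2 fold change of Rab35 (FBgn0031090, chromosome X, 20155766 to 20159872) was 2.11 (SE 0.23, adjusted p = 0.000287), or 4.31-fold, and it moved only between 1.93 and 2.27 over all alternatives. Rab7, the Rab of late endosomes and lysosomes, gave 113 and 364 counts in the controls and 1643, 1178 and 1742 with abd-A. The abd-A libraries were again all higher, at 353 ± 27.8 CPM (SD, n = 3) against 109 ± 45.0 CPM (SD, n = 2). For Rab7 (FBgn0015795, chromosome 3R, 23993008 to 23995452) the log2 fold change was 1.68 (SE 0.28, adjusted p = 0.00268), or 3.20-fold.

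The remaining endocytic genes were not called. For Rab5, which governs entry into the early endosome, 376 and 867 reads were counted without and 2064, 1767 and 2406 with abd-A. Its CPM did not overlap between the groups, and its log2 fold change of 0.70 (SE 0.21, adjusted p = 0.0383) passed the p threshold but stayed under 2-fold. The p threshold was also passed with the DESeq2 Wald test (0.0167) and limma-voom (0.0249). It was missed with DESeq2's size factors (0.0703), the upper quartile (0.0822) and library totals (0.0669). The replicate block (0.374) and fits with any abd-A library left out (0.124 to 0.174) missed it too. Rab4, a Rab of fast recycling, went from 25 and 78 counts to 152, 142 and 212 (log2 fold change 0.71, SE 0.38, adjusted p = 0.189). Rab14, known in fly blood cells for phagosome maturation, gave 56 and 142 counts against 242, 234 and 278. Its CPM overlapped between the groups, at 38.5 and 55.1 against 54.1 to 63.7, with a log2 fold change of 0.33 (SE 0.29). Rab21, an early endosomal Rab that binds integrins in mammals, was barely counted, with 10 and 6 counts against 9, 10 and 8. Rab9, which in mammals returns cargo from late endosomes to the Golgi, had 4 and 6 counts with Cg-Gal4>CS and 0 in all 3 abd-A libraries. Rab9 thus met the minimum of 10 summed counts only through the controls, so its direction was fixed in advance. Its controls, at 2.75 and 2.33 CPM, were near their own floor of 3 counts, at 2.06 and 1.16 CPM. The control mean was 3.58 times a floor of 3 counts per abd-A library, with an adjusted p of 0.105 (edgeR). These values do not establish a fall.

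In the secretory group, Rab1, which carries transport from the endoplasmic reticulum to the Golgi, was counted 146 and 479 times with Cg-Gal4>CS and 2743, 2047 and 2798 with abd-A. The abd-A libraries were high without exception, at 589 ± 28.3 CPM (SD, n = 3) against 143 ± 60.5 CPM (SD, n = 2). Rab1 (FBgn0285937, chromosome 3R, 21266029 to 21269060) had a log2 fold change of 2.03 (SE 0.29, adjusted p = 0.00106), or 4.09-fold. Its exons are overlapped over 742 of 1804 bases, 41.1%, by the antisense RNA gene asRNA:CR45798. That gene was counted far higher than Rab1, with 4448 and 3964 counts in the controls and 19811, 18785 and 18023 with abd-A, and a log2 fold change of 0.96 (SE 0.31). Without the strand setting of the counting the reads of these 2 genes cannot be told apart.

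Rab6, which serves traffic at and from the Golgi, had the widest gap between the controls among the upregulated genes. There were 14 counts in control replicate 1 and 158 in control replicate 2, or 9.62 and 61.3 CPM, and 1025, 632 and 992 counts with abd-A. Both controls were below the lowest abd-A library, at 172 CPM. For Rab6 (FBgn0015797, chromosome 2L, 12107221 to 12109116) the log2 fold change was 2.47 (SE 0.57, adjusted p = 0.0119), or 5.53-fold. Its size depended on the control used, at 1.73 without control replicate 1 and 4.38 without control replicate 2. The call was lost without abd-A replicate 1, at an adjusted p of 0.0598, where the range over all alternatives was 2.2e-14 to 0.0598.

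Rab2, a Golgi Rab that also takes part in fusion with lysosomes, and Rab10, which steers secretion of basement membrane in the fly ovary, had smaller fitted changes. The counts of Rab2 were 52 and 170 in the controls and 689, 416 and 643 with abd-A. No control reached the lowest abd-A level, and the log2 fold change of Rab2 (FBgn0014009, chromosome 2R, 6696739 to 6699469) was 1.39 (SE 0.31, adjusted p = 0.0111), or 2.62-fold. It was not called without abd-A replicate 1 (adjusted p = 0.0713) or abd-A replicate 3 (adjusted p = 0.0523), in a range of 4.4e-05 to 0.0713 over all alternatives. Rab10 (FBgn0015789, chromosome X, 20251338 to 20254691) gave 124 and 260 counts in the controls and 1046, 685 and 1048 with abd-A. The controls of Rab10 were close to each other, at 85.2 and 101 CPM, below 187 to 234 CPM with abd-A, and its log2 fold change was 1.20 (SE 0.23, adjusted p = 0.00508), or 2.30-fold.

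Rab8, which acts in polarized exocytosis, missed the fold threshold narrowly in the fit reported. It was counted 160 and 256 times without and 1012, 689 and 954 with abd-A, and the CPM of the groups did not overlap. The log2 fold change of Rab8 was 0.98 (SE 0.22, adjusted p = 0.0110), a change of 1.97-fold. It was 1.04 without control replicate 1, and it was called without abd-A replicate 2 (1.03). Under other scalings it was lower, at 0.82 with DESeq2's size factors, 0.80 with the upper quartile and 0.78 with library totals. The p threshold was missed with the replicate block (adjusted p = 0.152) and without abd-A replicate 1 (0.084) or 3 (0.064). Rab30, another Golgi Rab, gave 0 and 16 counts with Cg-Gal4>CS and 44, 30 and 74 with abd-A. Its log2 fold change of 1.74 (SE 1.13, adjusted p = 0.278) did not pass. Counted together, 4 of the 6 secretory genes and 3 of the 8 endocytic genes were upregulated, where 11.0% of all genes tested were. The median log2 fold change was -0.17 for all genes tested, 1.57 for the secretory and 0.71 for the endocytic genes. Whether the 2 groups differ was not tested.

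**Figure D2:**
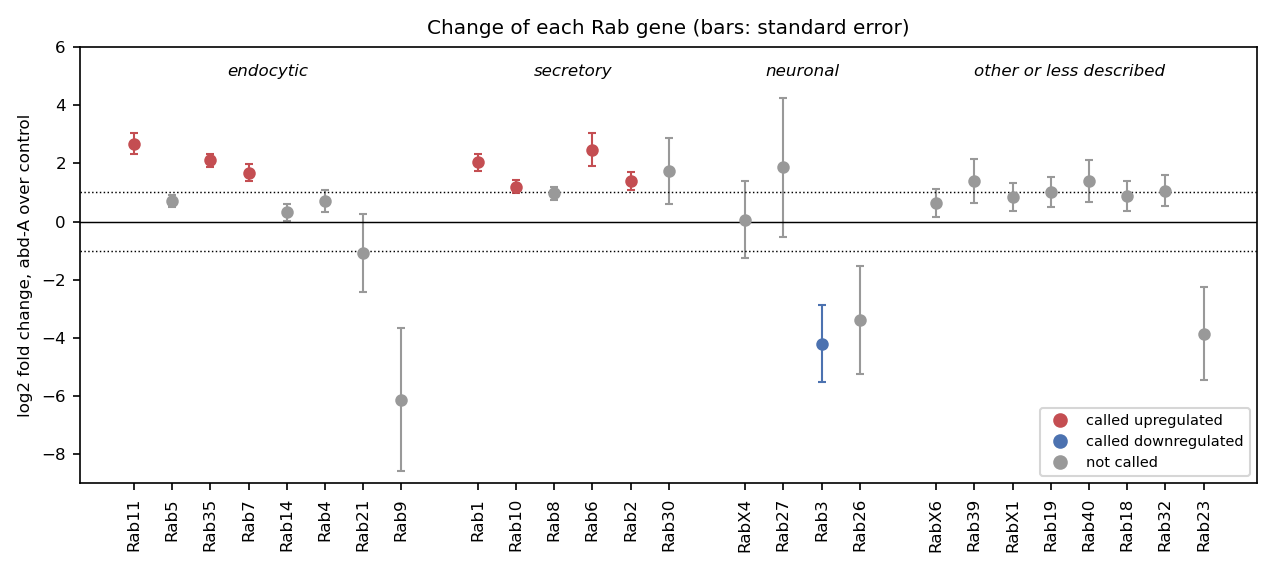
Log2 fold change of each tested Rab gene, abd-A over control, with its standard error as bar (red, upregulated; blue, downregulated; grey, not called; dotted lines, 2-fold). Called genes of the endocytic and secretory groups lie between 1.20 and 2.68. The fitted value of Rab9, with 0 counts in all abd-A libraries, depends on the prior count and is no bound.

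The members were also compared inside each library, where a ratio of 2 genes does not depend on how libraries are scaled. Rab11 counts were 0.606 and 1.06 times those of Rab5 in the controls and 3.69, 3.09 and 3.45 times with abd-A. For Rab35 the ratio to Rab5 was 0.346 and 0.339 in the controls and 1.04, 0.831 and 0.858 with abd-A. The ratios of Rab7, Rab1, Rab6, Rab10 and Rab2 were likewise higher in all abd-A libraries than in both controls. Those of Rab8 and Rab4 overlapped between the groups, and that of Rab14 was lower with abd-A, at 0.116 to 0.132 against 0.149 and 0.164. For Rab6 the ratio was 0.0372 and 0.182 in the controls and 0.497, 0.358 and 0.412 with abd-A, so the size of its gain depends on the control. The counts of the family thus did not rise in 1 common proportion.

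**Figure D3:**
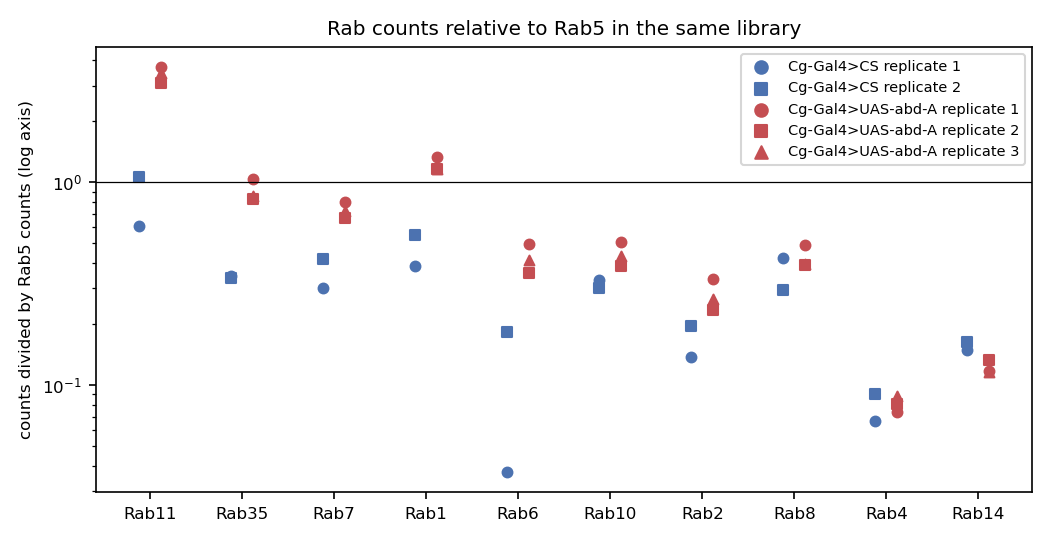
Counts of each Rab gene divided by the Rab5 counts of the same library, on a log axis (blue, Cg-Gal4>CS; red, Cg-Gal4>UAS-abd-A; symbols, replicates; line, equal counts). Rab11 lies at 0.606 and 1.06 in the controls and above 3 in all abd-A libraries, while Rab4 and Rab8 overlap between the groups.

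Levels of different genes were compared per length, as CPM per kilobase of exon. With Cg-Gal4>CS the order of the group means was Rab11 (141), Rab5 (94.5), Rab1 (79.3), Rab7 (64.4), Rab8 (45.2) and Rab10 (39.8). In control replicate 1 alone, Rab11 at 86.3 and Rab5 at 82.1 were nearly level. With abd-A the order was Rab11 (910), Rab1 (326), Rab7 (208), Rab5 (154), Rab35 (124) and Rab6 (108). Here each abd-A library put Rab11 at 821 or more and the next gene, Rab1, at 340 or less. Rab35 and Rab6 overlapped, with 113 to 135 and 90.8 to 121 CPM per kilobase over the 3 libraries. Rab5 moved from position 2 to position 4 in the order of means. Rab6 stood at position 16 in control replicate 1 and 8 in control replicate 2, and at 6 by the abd-A mean.

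Among the neuronal genes, Rab3, the Rab of synaptic vesicles, was called downregulated on few reads. Rab3 (FBgn0005586, chromosome 2R, 10721335 to 10729203) showed 2 and 57 counts with Cg-Gal4>CS and 2, 2 and 4 with abd-A. Control replicate 2 stands alone at 22.1 CPM, whereas control replicate 1 at 1.37 CPM is near the abd-A libraries at 0.447 to 0.851 CPM. The log2 fold change was -4.19 (SE 1.31, adjusted p = 0.0425), and the ratio of summed scaled counts was 23.5, with a counting interval of 11.2 to 56.9. That interval pools the reads of each group, so it leaves out the spread between the 2 controls. Without control replicate 2 the log2 fold change was -1.14, with an adjusted p of 0.719 (range over all alternatives 0.000927 to 0.719), and the call was also lost with any abd-A library left out, with the replicate block (adjusted p = 0.290) and with limma-voom (adjusted p = 0.0662). Rab26, another synaptic vesicle Rab, had the same outline, with 0 and 26 counts against 2, 1 and 3, and was not called (adjusted p = 0.199) unless control replicate 1 was left out. Rab27, which acts in regulated exocytosis, had 0 and 2 counts against 8, 12 and 0. RabX4, a fly gene expressed in neurons, had 2 and 15 counts against 30, 3 and 19, with a log2 fold change of 0.07 (SE 1.34) whose sign turned under other scalings, to -0.06 with DESeq2's size factors.

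The 13 neuron markers were 8 down and 1 up, with Syx1A, which other cells also use, the upregulated one. Of all genes tested, 12.7% were downregulated and 11.0% upregulated. Among the synaptic vesicle genes of the list, VAChT had 1 and 79 counts against 2, 0 and 0, with the same uneven controls as Rab3. By contrast nSyb, at 22 and 84 against 0, 0 and 1, and VGlut, at 24 and 46 against 0 in all abd-A libraries, were counted in both controls. Summed neuron markers were 448 and 782 CPM in the controls and 476 to 537 CPM with abd-A, of which Syx1A alone gave 373 to 433 CPM in the latter. Other tissues moved in the same libraries. Fat body markers (6 of 7 down) summed to 2771 and 22776 CPM in the controls and to 507 to 1653 CPM with abd-A, with Lsp2 at 518 and 12175 counts against 1, 1 and 11. Testis markers (3 of 7 tested down) summed to 172 and 69.8 CPM against 24.3 to 45.8 CPM, with 4 to 6 of 9 at 0 in the abd-A libraries. Control replicate 2, which held most of the Rab3 and Rab26 counts, was also the highest in fat body and neuron markers. The part of other tissues in the Rab3 and Rab26 values was not tested.

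Blood cell markers moved with the rise of the endocytic and secretory genes. All 9 lamellocyte markers were upregulated, and their summed level was 1253 and 1704 CPM in the controls and 19512 to 22642 CPM with abd-A. Of the 10 plasmatocyte markers 6 were downregulated, where 11.0% of all genes tested were upregulated and 12.7% downregulated. All 10 together summed to 53516 and 50161 CPM in the controls and to 25097 to 30786 CPM with abd-A. All 6 crystal cell markers were downregulated, from a sum of 9738 and 11599 CPM to 859 to 1145 CPM. No lamellocyte or crystal cell marker was at 0 in any library, and 1 plasmatocyte marker was at 0 in control replicate 1, so markers of all 3 blood cell types were present in both groups. The part of a changed mix of blood cells in the Rab values was not tested.

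**Figure D4:**
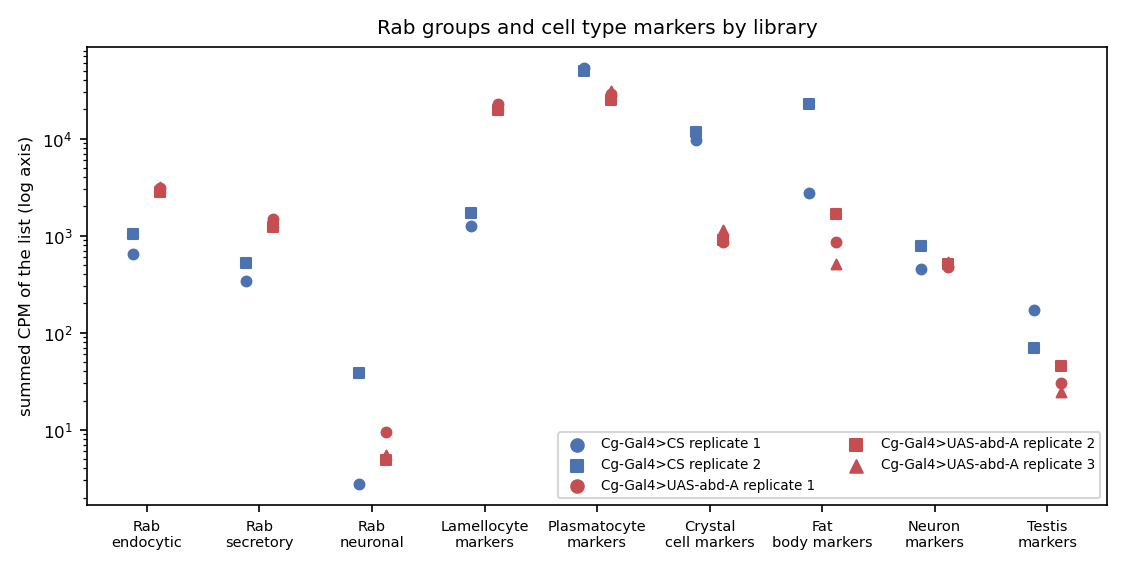
Summed CPM of 3 Rab groups and of marker lists in each library, on a log axis (blue, Cg-Gal4>CS; red, Cg-Gal4>UAS-abd-A; symbols, replicates). The endocytic and secretory sums and the lamellocyte markers are higher in all abd-A libraries, and the neuronal sum is highest in control replicate 2, at 38.8 CPM.

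None of the 8 tested genes of other or less described use was called by edgeR, and 1 of them, Rab23, had an unadjusted p under 0.05. For 6 of them all abd-A libraries lay above both controls, with modest counts. Of all genes tested, 27.3% lay so and 29.3% the other way. Rab18, a Rab of the endoplasmic reticulum and lipid droplets, had 11.0 and 10.9 CPM in the controls and 15.9 to 24.5 CPM with abd-A. Rab32, needed for pigment granules of the fly eye, had 9.62 and 9.31 CPM against 15.2 to 22.6 CPM. The controls of these genes were nearly equal, yet the log2 fold changes of 0.88 (adjusted p = 0.226) and 1.07 (adjusted p = 0.161) did not pass. Rab19, RabX1, Rab39 and Rab40 had log2 fold changes between 0.85 and 1.39. For Rab39 and Rab40 the controls were far apart, at 1.37 and 17.8 CPM and at 2.06 and 13.2 CPM. Both were called without control replicate 2, at log2 fold changes of 4.22 and 3.30, as were Rab4 at 1.17 and Rab30 at 8.34, the latter against a lone control with 0 counts. Rab23, which acts in planar polarity of the fly wing, was the one gene of this group lower in all abd-A libraries, with 6 and 27 counts against 4, 2 and 0. Its log2 fold change of -3.85 (SE 1.59) had an adjusted p of 0.102, and it passed with the DESeq2 Wald test (adjusted p = 0.0325) and with limma-voom (adjusted p = 0.0235), in a range of 0.0235 to 0.479 over all alternatives. Rab9, tested only through its counts in the controls, passed with limma-voom alone. RabX6 had 37.8 and 12.4 CPM in the controls and 31.3 to 42.2 CPM with abd-A, and 36.2% of its exonic bases are shared with Vti1a on the opposite strand. It was called without control replicate 1, at a log2 fold change of 1.60.

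The genes that load, switch and read Rabs were taken from 6 lists of 59 matched genes, of which 17 were upregulated and 4 downregulated, with a median log2 fold change of 0.76. These are 28.8% and 6.78% of the lists, where 11.0% and 12.7% of all genes tested were called in these directions. Among the 4 genes that attach lipid to Rabs and recycle them, RabGGTa, the alpha subunit of the Rab geranylgeranyl transferase, went from 20 and 24 counts to 232, 218 and 216 (log2 fold change 2.21, SE 0.38, adjusted p = 0.00286). Gdi, which extracts inactive Rabs from membranes, was not called (0.88, adjusted p = 0.115). Activators had 2 of 10, or 20.0%, upregulated, namely Rich, which in the fly works with Rab6 (log2 fold change 1.50), and Rabex-5, the activator of Rab5 (1.26). Neither was called without abd-A replicate 1 or abd-A replicate 3, while RabGGTa was called in every alternative.

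Among 14 listed inactivators 5 were upregulated (35.7%) and 2 downregulated (14.3%), the latter near the 12.7% of all genes, with a median log2 fold change of -0.04. The largest change was that of plx (pollux), a TBC-domain protein, with 48 and 50 counts in the controls and 1225, 869 and 1359 with abd-A (log2 fold change 3.37, SE 0.30, adjusted p = 9.5e-05). GAPcenA, whose mammalian counterpart inactivates Rab6, had a log2 fold change of 2.09, TBC1D23 of 1.96 and RN-tre, which acts on Rab5 in mammals, of 1.29. Gapvd1, at 2.12, was listed here by its name although its mammalian counterpart activates Rab5. The downregulated genes were wkd at -1.86 and Tbc1d15-17 at -1.67, and the latter call was lost with control replicate 2 or any abd-A library left out. Calls of wkd were lost without abd-A replicate 1 or 3, and that of TBC1D23 without abd-A replicate 1.

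Of 12 effectors and tethers 4 were upregulated (33.3%) and 2 downregulated (16.7%, where 12.7% of all genes were), with a median log2 fold change of 0.50. The Rab11 effectors nuf and Rip11 rose with Rab11. Counts of nuf (nuclear fallout) were 187 and 200 in the controls and 1882, 1590 and 2329 with abd-A, and those of Rip11 were 492 and 900 against 4901, 3301 and 4483. Their log2 fold changes were 2.13 (SE 0.27, adjusted p = 0.000651) and 1.52 (SE 0.21, adjusted p = 0.00100), and both were called in every alternative. The Golgi tethers Golgin245 and GM130 had log2 fold changes of 1.33 and 1.15, and GM130 was not called with DESeq2's size factors, upper-quartile normalization or library totals. Both tethers lost the call without abd-A replicate 1 or 3. Rim, an active-zone protein that binds Rab3, had 66 and 79 counts against 11, 1 and 0 (log2 fold change -5.30, SE 1.01, adjusted p = 0.00500). It was counted about equally in both controls, whereas Rab3 had 2 counts in control replicate 1. The other downregulated gene, btsz (bitesize), had a log2 fold change of -1.37 and lost the call with control replicate 1 or any abd-A library left out.

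Complexes that Rabs recruit were counted next. Of 11 HOPS and retromer genes, which serve lysosomal fusion and retrieval from endosomes, the 3 retromer genes Vps26, Vps29 and Vps35 were upregulated, with log2 fold changes of 1.18, 1.22 and 1.36. This is 27.3% of the list, where 11.0% of all genes were upregulated, and the list's median was 0.83. No HOPS gene was called, with the tethering subunit lt at 0.83 (adjusted p = 0.0382) short of 2-fold. Of 8 exocyst genes, with a median of 0.85, Sec3 (1.84) and Sec10 (1.37) were upregulated, or 25.0%. Sec3 lost the call with any abd-A library left out, and Sec10 without abd-A replicate 1 or 3. Vps26 lost it without control replicate 1 or any abd-A library. Sec15, the subunit that binds Rab11, had a log2 fold change of -0.21 (SE 0.33). In the related Arf family, 4 of 12 genes, or 33.3%, were upregulated, namely Arf1, Arf4, Arl1 and Arl5, with log2 fold changes from 1.18 to 1.43 and a family median of 0.97. Arl1 and Arl5 lost the call with any abd-A library left out, and Arf4 without control replicate 2 or abd-A replicate 1 or 3. No Arf gene had an increase as large as that of Rab11, Rab35, Rab6 or Rab1, a difference that was not tested.

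**Figure D5:**
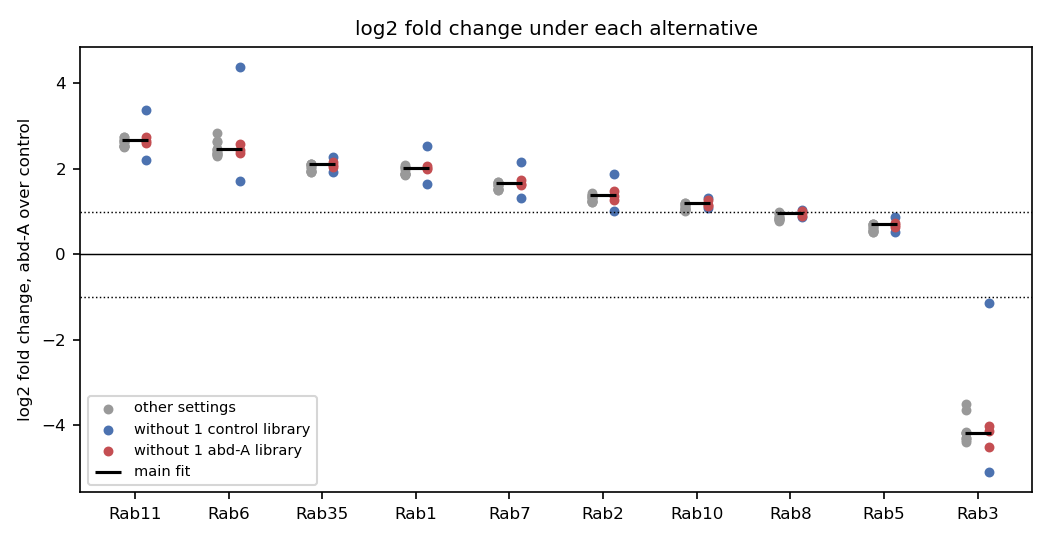
Log2 fold change of 10 Rab genes in the fit reported (black bar), with 1 library left out (blue, control; red, abd-A) and under all other settings (grey), with dotted lines at 2-fold. Rab11, Rab6, Rab35, Rab1, Rab7, Rab2 and Rab10 stay above 2-fold throughout, with Rab2 and Rab10 at 1.02 at their lowest. Rab6 spreads from 1.73 to 4.38 with the control left out, and Rab3 moves to -1.14 without control replicate 2.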

How the data were processed

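RNA from pooled larval hemolymph was sequenced as paired reads. The authors checked reads with FastQC 0.11.7, aligned them to dm6 with STAR 2.5.2 and counted them with htseq-count (HTSeq 0.11.2), and they deposited raw counts for each gene. Groups came from the sample titles. Symbols and exon lengths were read from an Ensembl annotation on dm6, which held 17710 of the 17807 identifiers. Genes with at least 10 counts in sum were fitted with edgeR 4.0.16 (TMM, quasi-likelihood F-test, 1 fit of all 5 libraries) under R 4.3.3, and p-values were adjusted over 11624 genes by Benjamini-Hochberg. SE is the size of the log2 fold change divided by the root of F. The study used the DESeq2 Wald test, which is an alternative here (DESeq2 1.42.0), as is limma-voom (limma 3.58.1). The fit was checked on made-up counts with known changes. Gene lists held 159 names, 1 unmatched. Every Rab gene is named, with the called genes of other lists, at most 6 a list; Gdi, lt, Sec15 and single tissue markers were named after their values were seen. The members and lists were chosen with earlier results of these data known. Counts thinned to the smallest library were an alternative chosen after seeing the data. Fits with 1 control library assume that it varies like the abd-A libraries.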

Additional observations from a re-analysis of the deposited data

How the results depend on the processing

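Other normalizations, count minimums, DESeq2, limma-voom and thinned counts left the number of upregulated Rab genes at 7. It was 6 with the replicate block, which dropped Rab10, 6 among genes without opposite-strand overlap, where Rab1 was left out, 9 by adjusted p alone and 5 to 11 with a library left out, with the 11 reached without control replicate 2. Correlations of deviations from the group means were 0.018 and -0.0022 for same-numbered libraries. With 2 controls their deviations mirror each other, so these values cannot tell whether replicate numbers pair the libraries. The downregulated count of 1 became 0 with filterByExpr, with at least 10 counts in every library and with the replicate block, 2 with DESeq2 (Rab3 and Rab23) and with limma-voom (Rab9 and Rab23, without Rab3), and 0 to 2 with a library left out. Over all genes, 1274 upregulated and 1481 downregulated became 693 to 2278 and 744 to 2094 with a library left out, 867 and 831 with the block, and 909 and 911 with at least 10 counts in every library. Genes without opposite-strand overlap gave 800 and 1075. Upregulated genes made up 46.2% of calls, against 36.5% to 38.1% under other scalings, which moved the median of all genes from -0.17 to between -0.32 and -0.36 and that of the Rab genes to between 0.79 and 0.84. RabX4 turned sign under 10 alternatives: -0.0608 with DESeq2's size factors, -0.0904 with the upper quartile, -0.0651 with library totals, -0.0065 with filterByExpr, -0.31 with the block, -0.0582 with the DESeq2 Wald test, -0.13 with limma-voom, -1.11 with thinned counts, and -0.59 to 1.45 with a library left out. RabX6 lay between -0.0179 and 1.60 in the latter. Depth limits Rab3, Rab9, Rab21, Rab23, Rab26, Rab27 and RabX4, whose values rest on few reads. The cause of these changes was not tested.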
